A study of Mus musculus with 4 samples.

Results

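*Cxcl9*-rich endothelial cells were the endothelial cells of mouse heart grafts that carried 20 or more UMIs of *Cxcl9*, a chemokine that attracts T cells. A UMI, or unique molecular identifier, tags 1 captured mRNA molecule. Each cell had over 200 detected genes and under 20% of its UMIs from mitochondrial genes. Each also had at least 1 UMI of *Cdh5* and of *Pecam1*, which encode junction proteins of endothelium, and 0 UMIs of *Ptprc*, *Pdgfrb*, *Prox1*, *Npr3* and *Mki67*, which mark leukocytes, mural cells, lymphatic vessels, endocardium and dividing cells. The rule kept 485 cells, which were 4.44% (95% interval 4.06 to 4.84) of the 10934 cells that met all of its terms except the one on *Cxcl9*, out of 44626 cells that passed the first filters. Below, the remaining 10449 gated cells are called other endothelial cells.

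The study profiled single cells of whole hearts 5 days after heterotopic transplantation, using 3′ droplet libraries, and compared allogeneic with syngeneic grafts. The labels list 2 allogeneic grafts of strain Balb/C and 2 syngeneic grafts of strain C57BL/6J. According to the methods of the study, all recipients were C57BL/6J, the animals were males of 8 to 10 weeks, and the grafts were digested at 37 °C with red cell lysis. No drug treatment or transgene is described, and the 2 groups are described as differing in the strain of the donor heart.

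The deposited matrix merges 4 libraries that barcode suffixes 1 to 4 tell apart, and no source used here pairs a suffix with a graft. The libraries are therefore named by their suffix and none is assigned to a graft, so the effect of donor strain was not analysed here. The whole matrix counts as 1 sample, so no test between conditions was possible. Intervals are exact 95% intervals (Poisson for levels and ratios, Clopper-Pearson for shares) and cover counting error only. Levels are UMIs of a gene per 1000000 UMIs of a group of cells (CPM), and since the libraries count 3′ ends they were not divided by transcript length. Since the cells were chosen by their raw *Cxcl9* count, the level of *Cxcl9* in them and every contrast with other endothelial cells is a description. The libraries held between 96020294 and 166079145 UMIs. They shared 308 pairs of identical barcodes, of which 8 involved a *Cxcl9*-rich cell and 0 joined a pair of them.

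*Cxcl9* and its neighbour *Cxcl10* encode ligands of *Cxcr3*, a receptor on activated T cells and natural killer cells. Both are classical targets of interferon gamma, which signals through its receptor and the Jak kinases and then through *Irf1*. Endothelium exposed to interferon gamma also makes antigen-presenting molecules, guanylate-binding proteins, adhesion molecules and the T cell inhibitory ligand *Cd274*, and vessels of rejecting grafts are the first donor surface that recipient leukocytes meet. *Ubd* encodes a small modifier related to ubiquitin that targets proteins to the proteasome, and interferon gamma with tumour necrosis factor induces it.

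*Cxcl9* (ENSMUSG00000029417) lies on the minus strand at chr5:92321347-92328079 of GRCm38, next to *Cxcl10* (ENSMUSG00000034855) at chr5:92346638-92348889, and *Ubd* (ENSMUSG00000035186) lies on the plus strand at chr17:37193892-37196095. With *Ido1*, they had the largest ratios between *Cxcl9*-rich and other endothelial cells of library 4. This ranking took genes at 100 CPM or more in the higher group that changed in the same direction in library 1. For *Ido1* no promoter window was available. The 250 bases before the annotated starts of *Cxcl9*, *Cxcl10* and *Ubd* are therefore shown, from RefSeq on GRCm38.p6. They read 5′ to 3′ along each gene's own strand, from chr5:92328080-92328329 for *Cxcl9*, chr5:92348890-92349139 for *Cxcl10* and chr17:37193642-37193891 for *Ubd*. Capitals mark matches to GAAANNGAAA, the core of the interferon-stimulated response element, or to GGGANTTCC, a form of the NF-kB site, on either strand. TTCNNNGAA, the letters of the gamma-activated site, was searched for too and did not occur in these 3 windows.
Cxcl9: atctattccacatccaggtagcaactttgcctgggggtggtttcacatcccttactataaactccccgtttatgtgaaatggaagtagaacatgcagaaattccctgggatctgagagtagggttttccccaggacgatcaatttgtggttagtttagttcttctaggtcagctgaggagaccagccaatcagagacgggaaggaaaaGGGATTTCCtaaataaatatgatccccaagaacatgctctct
Cxcl10: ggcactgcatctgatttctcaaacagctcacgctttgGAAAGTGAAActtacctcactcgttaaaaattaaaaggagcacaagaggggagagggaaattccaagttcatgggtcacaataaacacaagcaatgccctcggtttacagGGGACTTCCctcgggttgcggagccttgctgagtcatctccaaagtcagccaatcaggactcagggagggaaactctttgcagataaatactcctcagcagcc
Ubd: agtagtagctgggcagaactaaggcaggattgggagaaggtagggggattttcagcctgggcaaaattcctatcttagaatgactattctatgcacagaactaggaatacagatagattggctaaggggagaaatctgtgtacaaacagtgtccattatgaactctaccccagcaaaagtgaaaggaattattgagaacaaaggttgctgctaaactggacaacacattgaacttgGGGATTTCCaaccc
The NF-kB letters stood 42 to 34 bases before the start of *Cxcl9*, 103 to 95 before *Cxcl10* and 14 to 6 before *Ubd*. The response element letters stood 213 to 204 bases before *Cxcl10*. Among 32851 RefSeq promoter windows of this length, 470 (1.43%) held GGGANTTCC, 978 (2.98%) held GAAANNGAAA and 2306 (7.02%) held TTCNNNGAA. In the windows of other genes described below, *Gbp2* and *Rsad2* each held 1 match to GAAANNGAAA, *Serpina3g* and 1 start of *Irf1* each held 1 match to TTCNNNGAA, and *Cd274* held none of the 3 sets of letters. A match is a description of the letters and was not linked to binding.

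The *Cxcl9*-rich cells were spread unevenly over the libraries. Library 4 held 333 of the 485, which were 76.7% (72.5 to 80.6) of its 434 gated endothelial cells. Library 1 held 108 of 3487 (3.10%, 2.55 to 3.73), library 3 held 41 of 3039 (1.35%, 0.970 to 1.83) and library 2 held 3 of 3974 (0.0755%, 0.0156 to 0.220). Thus most endothelial cells were *Cxcl9*-rich in library 4, and a small minority in the other libraries. Only 5 of the 434 gated cells of library 4 had 0 UMIs of *Cxcl9*, against 1910 of 3487 in library 1, 3626 of 3974 in library 2 and 2024 of 3039 in library 3. For background, a UMI of *Cxcl9* was also found in 78.5% of T cell-gated and 77.0% of granulocyte-gated cells of library 4, against 6.49% and 5.45% in library 1, so the presence of a UMI alone does not set these endothelial cells apart.

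The amount of *Cxcl9* per cell was also highest in library 4. *Cxcl9*-rich cells had a median of 95 UMIs of *Cxcl9* in library 4 (highest 1163), 31.5 in library 1 (highest 473), 29 in library 3 (highest 88) and 36 among the 3 cells of library 2. Per 10000 UMIs of a cell the medians were 100.1 in library 4, 32.0 in library 1 and 21.03 in library 3, against 21.1 in the other endothelial cells of library 4 and 0 in those of libraries 1, 2 and 3. Their own median depth was 10852 UMIs in library 4, 12506.5 in library 1 and 16428 in library 3, against 3825, 5130 and 6755.5 UMIs in the other endothelial cells, and a rule on raw counts favours deep cells. With *Cxcl9* taken per 10000 UMIs, 57 of the 101 other endothelial cells of library 4 also reached 20, and 49 of the 485 *Cxcl9*-rich cells did not. Mitochondrial genes gave a median of 4.93% of the UMIs of *Cxcl9*-rich cells and 6.68% of those of other endothelial cells.

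**Figure D1:**
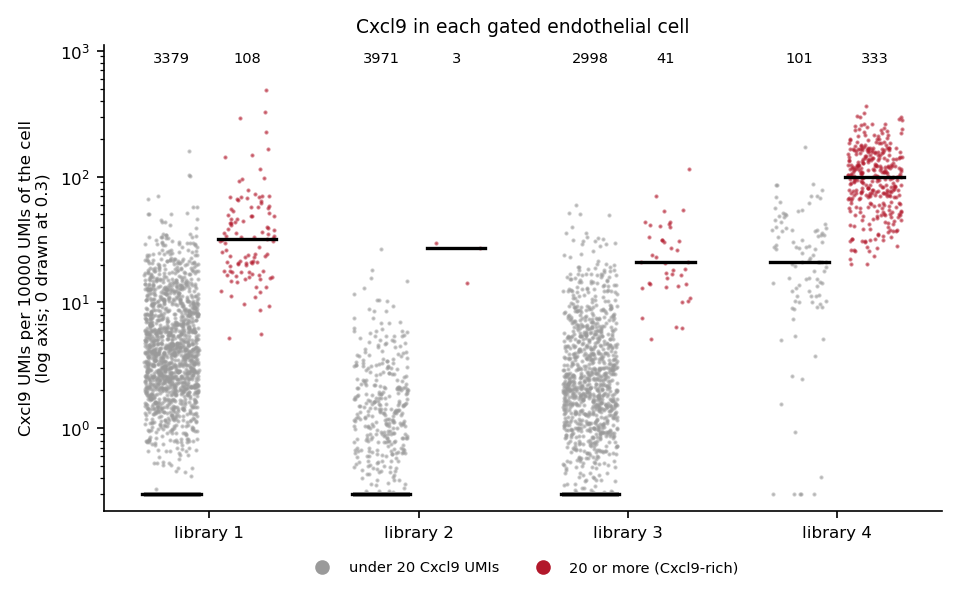
*Cxcl9* UMIs per 10000 UMIs of each gated endothelial cell, by library, on a log axis, for *Cxcl9*-rich cells and other endothelial cells, with lines at the medians, cell numbers above and 0 drawn at the bottom. The 333 *Cxcl9*-rich cells of library 4 have a median of 100.1, above the medians of 32.0 in library 1 and 21.03 in library 3, and the other endothelial cells of library 4 already have a median of 21.1.

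The threshold of 20 UMIs fell within a continuous distribution. The 111 gated cells with 15 to 19 UMIs of *Cxcl9* had 16.7 per 10000 UMIs in the median and 1282 CPM of *Cxcl10*. The 59 cells with 20 to 24 UMIs had 26.3 per 10000 and 1188 CPM. In library 4 alone, *Cxcl10* was at 1554 CPM in the 19 cells just under the threshold and 1048 CPM in the 13 just above it, and *Ubd* at 975.8 and 680.4 CPM. The cells just inside were thus not set apart from those just outside in these genes.

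Endothelial genes that the gate did not use were present in these cells. All 16 genes of a pan-endothelial list without *Cdh5* and *Pecam1*, among them the receptors *Kdr*, *Flt1*, *Tie1* and *Tek*, had UMIs in the *Cxcl9*-rich cells of libraries 4 and 1, and the list summed to 6794 CPM in them and 7194 in other endothelial cells of library 4 (8269 and 8710 in library 1). None of the 16 differed 2-fold between the groups in either library. *Cdh5*, whose level the gate itself bears on, was at 821 and 837 CPM in library 4.

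Transcripts that mark other cells were present in both groups. Macrophage markers (12 genes) summed to 739.7 CPM in the *Cxcl9*-rich cells of library 4, with *Lyz2* the most abundant, against 1533 in the other endothelial cells, and to 118.7 and 169.4 CPM in library 1. All 12 had UMIs in the *Cxcl9*-rich cells of library 4, whereas 1 of them was at 0 in those of library 1. *C1qa*, a defining macrophage gene, was at 73.5 CPM in the *Cxcl9*-rich cells of library 4 and 1795 CPM in cells of the same library gated as macrophages. A UMI of it occurred in 56.5% of *Cxcl9*-rich cells and 58.4% of other endothelial cells there, at median depths of 10852 and 3825 UMIs. Thinned to 2000 UMIs, these shares became 17.1% and 30.8%. T and NK cell markers (12 genes, led by *Gzmb*) summed to 157.0 and 360.2 CPM in library 4 and to 7.59 and 7.06 CPM in library 1. Fibroblast markers summed to 140.6 CPM in *Cxcl9*-rich cells and 1147 in other endothelial cells of library 4, and to 465.3 and 1348 in library 1. Erythroid markers summed to 3556 and 10975 CPM in library 4 and 24719 and 20033 CPM in library 1. Of the 3065 UMIs of *Hbb-bs* in other endothelial cells of library 4, 3043 lay in 1 cell, and of the 19169 in *Cxcl9*-rich cells of library 1, 98.4% lay in 5 of 108 cells. The part of these transcripts in the results was not tested.

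The gate genes removed different cells in different libraries. Of the 882 cells with at least 20 UMIs of *Cxcl9* and 1 of *Cdh5* and *Pecam1*, 312 had a UMI of *Ptprc*, 71 of *Pdgfrb*, 26 of *Prox1*, 7 of *Npr3* and 67 of *Mki67*. In library 4 the cells with *Ptprc* numbered 300 and those with *Pdgfrb* 34, whereas in library 1 they numbered 3 and 22, and in library 3, 9 and 15.

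The next paragraphs compare *Cxcl9*-rich cells with other endothelial cells of their own library. A gene was counted as higher or lower when its CPM, with 10 added to both values, differed at least 2-fold, among genes at 10 CPM or more in either group. Ratios printed as folds are of the CPM themselves, and log2 ratios carry the 10 added. In library 4, 27 of 8627 genes (0.313%) were higher and 189 (2.19%) lower in *Cxcl9*-rich cells, and the median gene had a log2 ratio of -0.10. Centred on that median, 46 were higher and 141 lower. With cells thinned to 2000 UMIs, 405 of 8798 genes were higher and 582 lower. In library 1, 65 of 8435 genes (0.771%) were higher and 48 (0.569%) lower, with a median of -0.09. In library 3, 66 of 8594 (0.768%) were higher and 80 (0.931%) lower, with a median of -0.09. Pooled over libraries, 223 of 8450 (2.64%) were higher and 131 (1.55%) lower, a contrast in which most *Cxcl9*-rich cells come from library 4 and most others from the remaining libraries. Lists of genes are read beside these shares.

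Among chemokines the rule did not use, the *Cxcr3* ligand *Cxcl10* was higher in every library with more than 3 such cells, in summed counts. *Cxcl9* itself, which chose the cells, was at 11424 CPM in *Cxcl9*-rich cells and 1817 in other endothelial cells of library 4, at 3693 and 295 in library 1, and at 1991 and 137 in library 3. *Cxcl10* was at 2826 and 1021 CPM in library 4, a ratio of 2.77-fold (2.53 to 3.03). With every cell of library 4 weighing equally, its log2 ratio fell from 1.46 to 0.965, just under 2-fold. In library 1 it was at 2013 and 318 CPM, a ratio of 6.34-fold (6.06 to 6.62), and in library 3 at 1569 and 218. The ratio was thus larger inside libraries 1 and 3, where the comparison cells had little *Cxcl10*, than inside library 4, and this difference between libraries was not tested. *Cxcl11* was not analysed here.

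Other chemokines were mixed. Of 13 measured in library 4, 0 were higher and 3 lower, with a median log2 ratio of -0.77. Of 8 in library 1, 2 were higher and 1 lower (median 0.27), and of 9 in library 3, 1 was higher and 0 lower (median 0.08). Over all genes, the shares higher were 0.313%, 0.771% and 0.768% in the same order, and the shares lower 2.19%, 0.569% and 0.931%. *Ccl2*, which attracts monocytes, was at 71.1 CPM in *Cxcl9*-rich cells and 202 in other endothelial cells of library 4, but at 197 and 42.4 in library 1. The levels rested in part on few cells. Of the 286 UMIs of *Ccl2* in *Cxcl9*-rich cells of library 1, 244 (85.3%) lay in 5 of the 108 cells, and 53.5% of those in other endothelial cells of library 4 lay in 5 of 101. *Cxcl2*, which attracts neutrophils, was at 144 and 252 CPM in library 4 and 329 and 114 in library 1. *Cxcl12*, which binds *Cxcr4*, was below the level of other endothelial cells in libraries 4 (837 and 1249 CPM), 1 (515 and 979.6) and 3 (1176 and 1664).

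*Vcam1*, which holds rolling leukocytes through integrins, stood out among the adhesion molecules. It was at 1387 and 502 CPM in *Cxcl9*-rich and other endothelial cells of library 4, 247 and 83.6 in library 1, and 130.2 and 88.4 in library 3. The ratio was 2.76-fold (2.43 to 3.15) in library 4 and 2.96-fold (2.63 to 3.31) in library 1. In *Cxcl9*-rich cells, 185 of the 358 UMIs of *Vcam1* lay in 5 of 108 cells in library 1, and 60 of 91 in 5 of 41 cells in library 3. After thinning of the cells to 2000 UMIs, the log2 ratio in library 4 fell from 1.45 to 0.95, under 2-fold. A UMI of it was found in 92.8% of the *Cxcl9*-rich cells of library 4 and 53.7% of those of library 1 (77.5% and 17.6% thinned). *Icam1*, the partner of leukocyte integrin LFA-1, was at 671 and 476 CPM in library 4, 1130.1 and 646 in library 1 and 1349 and 877 in library 3, a smaller gap. *Selp*, the P-selectin of activated endothelium, was at 59.7 and 116 CPM in library 4 and 166 and 43.8 in library 3. In both libraries these levels rested on few cells. Of the 58 UMIs of *Selp* in other endothelial cells of library 4, 53 lay in 5 of 101 cells. All 116 UMIs of *Selp* in the *Cxcl9*-rich cells of library 3 lay in 3 of 41 cells, 74 of them in 1 cell. Of 14 adhesion genes measured in library 4, 1 was higher and 1 lower, and the list median was 0.22. *Plvap*, a protein of endothelial diaphragms, was at 522 and 260.2 CPM in library 4, a ratio of 2.01-fold (1.68 to 2.41), and at 40.7 and 29.7 in library 1.

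Among ligands that act on T cells, *Cd274* (PD-L1, the inhibitory ligand of PD-1) was the most abundant in the *Cxcl9*-rich cells of libraries 4 and 1. It was at 797 and 560.3 CPM in library 4, 455 and 128 in library 1 and 166 and 48.3 in library 3. In library 3 *Lgals9*, a galectin, was above it, at 289 and 165 CPM. The ratio of *Cd274* was 1.42-fold (1.26 to 1.61) in library 4 and 3.56-fold (3.27 to 3.88) in library 1. *Il15*, a growth factor of memory T cells and natural killer cells, was at 71.1 and 42.0 CPM in library 4 and 41.4 and 21.8 in library 1. *Cd40*, a costimulatory receptor, was at 78.0 and 44.0 CPM and 49.7 and 19.1. Of 11 such genes measured in each, 0 were higher in library 4 and 2 in library 1, with medians of 0.36 and 0.44 and none lower.

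Among the effector genes, *Ubd* differed both within library 4 and between libraries. It was at 1891 CPM in the *Cxcl9*-rich cells of library 4 and 400.2 in the other endothelial cells, a ratio of 4.73-fold (4.11 to 5.46). Its log2 ratio there fell from 2.21 to 1.39 after thinning to 2000 UMIs and to 1.51 with cells weighing equally. It was at 26.9 and 0.859 CPM in library 1. In library 3 its UMIs numbered 0 in the *Cxcl9*-rich cells, which allows up to 4.29 CPM, and it was at 0.193 CPM in the other endothelial cells. A UMI of *Ubd* occurred in 269 of 333 *Cxcl9*-rich cells of library 4 (80.8%) and in 43.6% of the other endothelial cells, but in 6 of 108 *Cxcl9*-rich cells of library 1 (5.56%). Thinned to 2000 UMIs, these shares were 61.3%, 34.6% and 3.70%. For background, *Ubd* was between 56.6 and 73.0 CPM in the macrophage, T cell, fibroblast and granulocyte gates of library 4 and at 356.8 CPM in the cells that no gate took.

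*Ido1*, which breaks down tryptophan, followed *Ubd* in library 4 and was also higher in library 1. It was at 214 and 64.0 CPM in library 4 (ratio 3.34-fold (2.35 to 4.91)), 29.7 and 4.53 in library 1 (ratio 6.55-fold (4.46 to 9.48)) and 5.72 and 3.28 in library 3. Its 43 UMIs in *Cxcl9*-rich cells of library 1 came from 21 of 108 cells, with 25 of them in 5 cells. *Wars*, the tryptophanyl-tRNA synthetase that interferon gamma induces, was at 1357 and 1225 CPM in library 4 and 193 and 89.8 in library 1. *Serpina3g*, an inhibitor of lysosomal proteases, was at 1606 and 1025 CPM in library 4 and 117 and 2.58 in library 1. Of its 169 UMIs in *Cxcl9*-rich cells of library 1, 161 lay in 5 of the 108 cells. Of 23 effector genes measured in library 4, 2 were higher and 5 lower (median 0.12), and of 18 in library 1, 5 were higher and 3 lower (median 0.11). *C3*, the central complement component, was lower in both, at 27.9 and 90.1 CPM in library 4 and 48.3 and 192 in library 1.

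**Figure D2:**
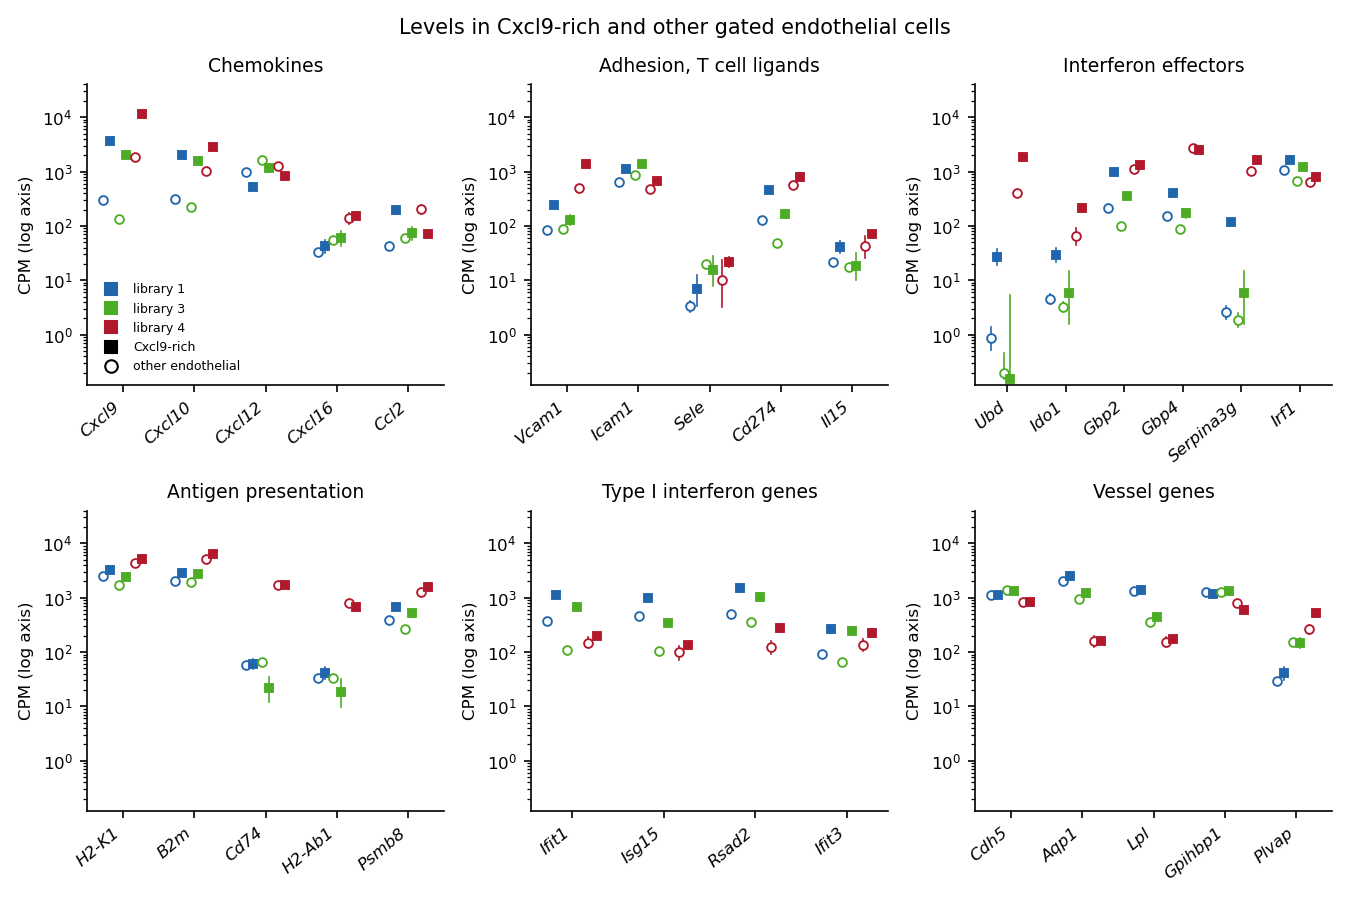
Level in CPM, on a log axis, of selected genes in *Cxcl9*-rich and other endothelial cells of libraries 4, 1 and 3, with exact 95% Poisson intervals (filled squares, *Cxcl9*-rich cells; open circles, others). A level of 0 is drawn at the bottom. *Cxcl9*, *Cxcl10*, *Ubd* and *Vcam1* are apart between the groups in library 4, whereas *Gbp4* and *H2-Ab1* are nearly level there.

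The guanylate-binding proteins, GTPases that act on vacuoles of intracellular pathogens, hardly separated the *Cxcl9*-rich cells of library 4 from its other endothelial cells. Of 10 measured there 0 were higher and 1 lower, with a median log2 ratio of 0.06. In library 1, 6 of 7 were higher (median 1.35), and in library 3, 5 of 7 (median 1.19). *Gbp2* was at 1294 and 1107 CPM in library 4, 963 and 215 in library 1 and 355 and 101 in library 3. *Gbp4* was at 2523 and 2722 CPM, 407 and 149, and 172 and 86.8 in the same order. Members of this family share sequence, as do *Tgtp1* with *Tgtp2*, the H2-Q and H2-T genes and the Serpina3 genes, so reads may have been split between copies and single values are uncertain.

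Immunity-related GTPases were also more often higher within libraries 1 and 3 than within library 4, a difference between libraries that was not tested for either family. In library 4, 0 of 10 were higher (median 0.04), in library 1, 4 of 10 (median 0.89) and in library 3, 6 of 10 (median 1.15), with none lower. *Iigp1* was the most abundant, at 2672 and 2275 CPM in library 4, 2845 and 1357 in library 1 and 1960.0 and 786 in library 3. *Igtp* was at 841 and 678 CPM in library 4 and 292 and 116 in library 1.

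Components of interferon gamma signalling were shared by both groups of cells in library 4. Of 18 genes measured there 0 were higher or lower (median 0.05), against 4 of 17 higher in library 1 (median 0.43) and 3 of 17 in library 3 (median 0.63). *Irf1*, a transcription factor that interferon gamma induces, was at 789 and 650.4 CPM in library 4, 1648 and 1074 in library 1 and 1235 and 668 in library 3. It was highest in library 1, not in library 4. The receptor chain *Ifngr1* was at 152 and 198 CPM in library 4 and 245 and 249 in library 1. *Batf2*, an induced transcription factor, was at 317 and 276 CPM in library 4 and 35.9 and 6.92 in library 1. NF-kB target genes gave 0 of 14 higher or lower in library 4 (median 0.08) and 1 of 13 higher in library 1 (median 0.38).

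Antiviral genes that type I interferon induces most strongly were more often higher than in other endothelial cells within libraries 1 and 3 than within library 4, a difference that was not tested. Of 25 measured in each, 10 were higher in library 1 (median 0.92) and 15 in library 3 (median 1.18), against 2 of 26 in library 4 (median 0.28), and none was lower. *Ifit1* was at 1133 and 369.8 CPM in library 1, 664 and 108 in library 3, and 194 and 148 in library 4. *Rsad2* (viperin) was at 1486 and 496 CPM, 1037 and 350.5, and 281 and 122 in the same order, and was 1 of the 2 antiviral genes higher in library 4. The other was *Usp18*, which limits interferon signalling, at 89.0 and 28.0 CPM. The *Cxcl9*-rich cells of library 1 therefore held more *Ifit1* and *Rsad2* than those of library 4 while holding less *Cxcl9*.

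Few antigen presentation genes separated *Cxcl9*-rich from other endothelial cells within a library. None of 18 MHC class I and peptide-loading genes was higher or lower in library 4 (median 0.14), library 1 (0.47) or library 3 (0.45). *B2m*, the common light chain, was at 6374 and 5209 CPM in library 4 and 2851 and 2003 in library 1. None of 5 immunoproteasome genes passed either, with medians of 0.20, 0.45 and 0.48. Of 8 MHC class II genes measured in library 4, 0 were higher or lower and the median was -0.31, and in library 3, 0 of 4 were higher and 1 lower (median -0.73), the lower being *Cd74*. *H2-Ab1* was at 666 CPM in *Cxcl9*-rich and 800.5 in other endothelial cells of library 4, 41.4 and 33.6 in library 1, and 18.6 and 32.7 in library 3. *Cd74*, the class II invariant chain, was at 1711 and 1715 CPM in library 4, 60.1 and 57.5 in library 1 and 21.5 and 66.2 in library 3. Macrophage-gated cells of library 4 held 12561 CPM of *Cd74*, and 4 of 11 macrophage markers were lower in the *Cxcl9*-rich cells there (median -0.91), among them *C1qa* at 73.5 and 160.1 CPM, while *Lyz2* was at 239.8 and 470.3. In library 3, 2 of 9 were lower (median -0.76), among them *Lyz2* at 50.1 and 132 CPM. The part of macrophage RNA in the class II levels was not tested. A UMI of *H2-Ab1* was found in 96.1% of *Cxcl9*-rich and 81.2% of other endothelial cells of library 4, and in 27 of 108 and 16.5% of those of library 1. Thinned to 2000 UMIs, the shares were 61.0% and 67.9% in library 4 and 6.48% and 6.74% in library 1, so the gaps at full depth were not seen at equal depth.

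Vessel genes placed most *Cxcl9*-rich cells with capillaries. Each cell was given the vessel type of which it had the largest share of listed genes detected, with at least 2 detected and no tie. Of the *Cxcl9*-rich cells of library 4, 74.5% were capillary, 10.8% venous, 9.01% arterial and 4.50% angiogenic, and 1.20% had no type. The other endothelial cells of that library were 54.5% capillary, 17.8% arterial and 10.9% venous. In library 1, 96.3% of the *Cxcl9*-rich and 93.9% of the other endothelial cells were capillary, and 0 of the 108 *Cxcl9*-rich cells were arterial, against 3.73% of the others. With each cell thinned to 2000 UMIs, the shares in library 4 were 64.6% (59.2 to 69.7) capillary, 16.2% venous and 5.11% arterial among *Cxcl9*-rich cells. Among the 78 other endothelial cells deep enough to thin, they were 61.5% (49.8 to 72.3) capillary, 8.97% venous and 12.8% arterial. The gap in capillary share was thus within counting error at equal depth.

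Arterial genes were lower in 5 of 11 cases in library 4 (median -0.99), 5 of 10 in library 1 (median -0.96) and 4 of 11 in library 3 (median -0.67), and none was higher. *Sema3g* was at 88.8 and 232 CPM in library 4, 13.8 and 61.1 in library 1 and 14.3 and 57.9 in library 3. *Fbln5*, an elastic fibre gene, was at 42.2 and 166 CPM, 5.52 and 49.3, and 34.3 and 117. *Gja4*, the arterial connexin 37, was at 90.9 and 190.1 CPM in library 4 and 2.76 and 18.7 in library 1. Capillary genes gave 1 of 11 lower in library 4 (median 0.01) and 0 of 11 in library 1 (median -0.24). Lymphatic and endocardial genes, whose markers *Prox1* and *Npr3* the gate barred, were lower in 5 of 6 (median -2.22) and 3 of 3 cases (median -1.73) in library 4. In library 1, 1 of 2 lymphatic genes was lower (median -0.83), but in library 3, 3 of 4 were higher (median 1.47) and none lower. *Ccl21a* was at 525 and 10.8 CPM in library 3, and 364 of its 367 UMIs in *Cxcl9*-rich cells lay in 1 of 41 cells.

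The genes furthest below the level of other endothelial cells in library 4 rested on few of those 101 cells. *Ccl21a*, a lymphatic chemokine, was at 1.43 and 937 CPM, but its 468 UMIs in other endothelial cells lay in 3 cells, with 444 in 1 of them. *Dcn*, a fibroblast proteoglycan, had 402 UMIs in them, of which 267 lay in 1 cell. *Lyve1* had 57 UMIs in 2 cells and *Itih4* had 54 in 1 cell. Apart from the listed genes already described, the genes furthest above were *Fjx1* (117 and 42.0 CPM), *Trp53i11* (239.8 and 96.1), *Dtx3l* (211 and 94.1), a ubiquitin ligase of the interferon response, and *AA467197* (532 and 262). In library 1 the corresponding genes included *Mnda*, *Ifi204*, *Herc6* and *Neurl3*. *Neurl3* was at 459.8 and 173 CPM there and 239.8 and 178 in library 4.

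Within the 333 *Cxcl9*-rich cells of library 4, other genes varied along with *Cxcl9*. The cells were ordered by *Cxcl9* per 10000 UMIs and divided into 3 sets of 111, with medians of 51.9, 100.1 and 166.1 and median depths of 10515, 12113 and 10889 UMIs. *Cxcl10* was at 1333, 2495 and 4399 CPM in the low, middle and high sets, a ratio of high to low of 3.30-fold (3.13 to 3.48). *Ubd* was at 819, 1551 and 3122 CPM, a ratio of 3.81-fold (3.56 to 4.09). Both therefore increased over the sets along with *Cxcl9* itself. In all, 37 of 8104 genes (0.457%) were at least 2-fold higher in the high than in the low set and 44 (0.543%) at least 2-fold lower, and the median gene had a log2 ratio of -0.09.

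In the high set, 1 of 10 T cell ligand genes (median 0.36), 1 of 13 adhesion genes (median 0.16) and 2 of 8 angiogenic genes (median 0.32) were at least 2-fold higher. None was lower, and the share higher among all genes was 0.457%. *Il15* was at 33.9, 65.5 and 108 CPM over the sets. *Selp* was at 33.1, 37.6 and 104 CPM, with UMIs in 34 of the 333 cells and 125 of its 250 UMIs in 5 of them. *Angpt2*, a *Tek* ligand that destabilises vessels, was at 75.8, 62.8 and 229 CPM. *Nos2*, the inducible nitric oxide synthase, was at 33.9, 50.5 and 105 CPM. *Vcam1* was at 1011, 1230.3 and 1855 CPM, *Ido1* at 148, 194 and 288 and *Plvap* at 389, 462 and 693, each under 2-fold between the end sets. Outside the lists, the matricellular genes *Ctgf* and *Thbs1* and the ligand *Bmp2* were at 28.2, 75.8 and 49.2 CPM in the low set and 199.9, 321.7 and 213.3 in the high set. Between the low and high sets of library 1, the log2 ratio was -1.21 for *Ctgf*, 0.02 for *Thbs1* and 1.88 for *Bmp2*. It was -0.33 for *Nos2* and 0.05 for *Angpt2*, so only *Bmp2* of these 5 was also at least 2-fold higher there. *Il15* (2.16) and *Selp* (2.75) were at least 2-fold higher there too. All 55 UMIs of *Selp* in the *Cxcl9*-rich cells of library 1 lay in 5 of 108 cells.

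Several endothelial genes ran the other way in library 4. *Gpihbp1*, which anchors lipoprotein lipase in capillaries, was at 824, 614 and 406 CPM over the sets. *Klf4*, a transcription factor of laminar flow, was at 838, 720.3 and 384 CPM. *Nos3*, the endothelial nitric oxide synthase, was at 152, 99.7 and 67.3 CPM, and *Thbd*, the anticoagulant thrombomodulin, at 145, 109 and 49.8 CPM. *Sox17* was at 202, 122 and 94.9 CPM. In library 1 none of these 5 was 2-fold lower in the high set. The log2 ratios there were -0.46 for *Gpihbp1*, -0.72 for *Klf4*, -0.48 for *Nos3*, -0.15 for *Thbd* and -0.44 for *Sox17*. Among all 8104 genes 62.1% were below 0 on the log2 scale in the high set. By list, all 9 flow and barrier genes were below 0 (3 of them at least 2-fold, median -0.66), as were 10 of 11 arterial (4 at 2-fold, median -0.58), 9 of 11 capillary (2 at 2-fold, median -0.54), all 11 immediate early (0 at 2-fold, median -0.53) and 13 of 16 pan-endothelial genes (1 at 2-fold, median -0.35). Of 11 coagulation genes, 7 were below 0 (1 at 2-fold, median -0.24). In library 1, 0 flow and barrier, capillary, pan-endothelial or immediate early genes were 2-fold lower. Their medians there were -0.30, -0.33, -0.31 and -0.10, and 4 of 11 immediate early genes were above 0. Haemoglobin transcripts were also lower in the high set of library 4, with *Hbb-bs* at 3359, 2849 and 201 CPM over the sets. Of the *Hbb-bs* UMIs of all 333 cells, 74.9% lay in 5 cells. Erythroid RNA moved with the sets, and its part in these differences was not tested.

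**Figure D3:**
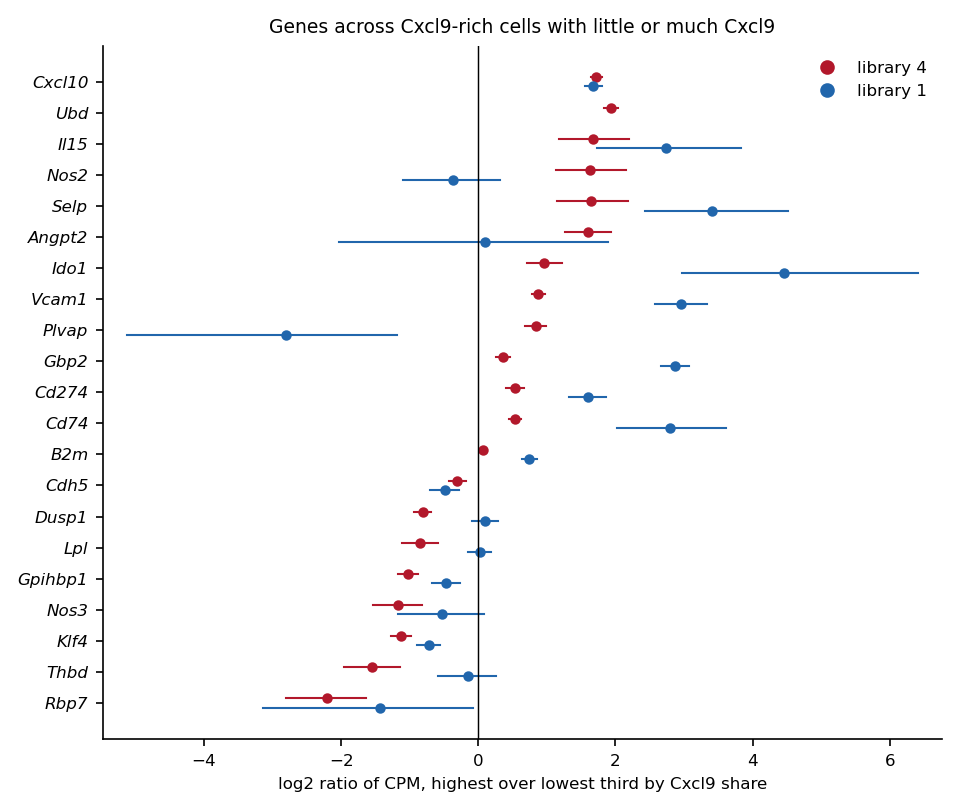
Ratio of CPM on the log2 scale between the high and low sets of *Cxcl9*-rich cells, ordered by *Cxcl9* per 10000 UMIs, for selected genes in library 4 (111 cells a set) and library 1 (36 cells a set), with exact 95% intervals. In library 4 *Cxcl10* and *Ubd* lie right of 0, with ratios of 3.30-fold (3.13 to 3.48) and 3.81-fold (3.56 to 4.09), and *Gpihbp1*, *Klf4* and *Thbd* lie left of 0.

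Between the low and high sets of library 4, 0.457% of all genes were at least 2-fold higher, and 37.9% were above 0. All 10 guanylate-binding proteins were above 0 in the high set of library 4 and none reached 2-fold (median 0.31), and the same held for 17 of 18 MHC class I genes (median 0.12). All 8 MHC class II genes were above 0, with 1 at 2-fold (median 0.36). After each cell was thinned to 2000 UMIs, the highest rank correlations with *Cxcl9* over the 333 cells, among 1504 genes, were 0.37 for *Cxcl10*, 0.36 for *Ubd* and 0.27 for *Serpina3g*. *Cavin3*, *H2-K1*, *Cd274*, *Tmsb10*, *Gbp2b*, *Gbp5* and *Vcam1* followed at 0.24 to 0.22, and the lowest was -0.23 for *Gpihbp1*. These cells share 1 library, the values are sparse, and no p-value was computed.

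In the 108 *Cxcl9*-rich cells of library 1 the same division gave sets of 36 with medians of 16.2, 32.0 and 67.9 per 10000 UMIs. Their median depths were unequal, at 20888, 11259.5 and 6941.5 UMIs. Between the low and high sets 266 of 8545 genes (3.11%) were at least 2-fold higher and 323 (3.78%) lower. In this library 8 of 9 guanylate-binding proteins (median 2.04), 8 of 18 MHC class I genes (median 0.90), 5 of 5 immunoproteasome genes (median 1.36) and 4 of 6 MHC class II genes (median 1.38) were at least 2-fold higher in the high set. In library 4 these families also lay above 0, but with smaller medians. The high set of library 1 held 5 of the 6 cells with *Ubd* described below. Without these cells 6 of 9 guanylate-binding proteins (median 1.41), 6 of 18 MHC class I (median 0.70), 4 of 5 immunoproteasome (median 1.15) and 5 of 6 MHC class II genes (median 1.18) were at least 2-fold higher. Erythroid markers were lower in the high set of library 1 in 5 of 5 cases (median -6.96), and 7 of 8 macrophage markers were above 0 with none at 2-fold (median 0.65). Their part in these differences was not tested. Whether the 2 libraries differ in this was not tested.

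The 6 *Cxcl9*-rich cells of library 1 that carried *Ubd*, singled out after their values were seen, had higher summed levels of several genes than the 102 without it. They held 39 UMIs of *Ubd* and had between 44.6 and 490.3 UMIs of *Cxcl9* per 10000, with a median of 227.0, against a median of 30.8 in the 102 without *Ubd*. *Cxcl10* was at 4177 CPM in the 6, 1889 in the 102 and 2826 in the *Cxcl9*-rich cells of library 4. In the same order *Gbp2* was at 5154, 722.0 and 1294 CPM, *Wars* at 825.2, 156.2 and 1357, and *Batf2* at 215.8, 25.6 and 317. Their *Ubd* was at 495.1 CPM, against 1891 in library 4. The 6 cells were not alike. In the 3 with *Serpina3g*, *Wars* was at 1370.1 CPM and *Gbp2* at 6320.0, and in the 3 without it, *Wars* was at 89.5 CPM and *Gbp2* at 3581. Of the 169 UMIs of *Serpina3g* in *Cxcl9*-rich cells of library 1, 155 lay in 3 of these cells. None of the 6 shared a barcode with a cell of library 4. They held 0 UMIs of *Gbp2b*, a gene found in 332 of 333 *Cxcl9*-rich cells of library 4 and in 0 of the 108 of library 1. Among other endothelial cells, *Gbp2b* was found in 87 of 101 in library 4 and 3 of 3379 in library 1. The median depth of the 6 cells, 11430.5 UMIs, was close to the 12506.5 of the other 102.

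*Cxcl9*-rich cells were then compared between libraries 4 and 1, beside the same comparison in the other endothelial cells. Because libraries cannot be paired with grafts, a difference here cannot be told apart from one of donor strain, graft type, animal, dissociation or sequencing. Of 8462 genes, 558 (6.59%) were higher in the *Cxcl9*-rich cells of library 4 and 673 (7.95%) lower, and in the other endothelial cells 664 of 9152 (7.26%) were higher and 706 (7.71%) lower. The medians over all genes were -0.02 and 0.03.

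MHC class II genes had the highest list median. All 8 measured were higher in the *Cxcl9*-rich cells of library 4 (median log2 ratio 3.19), as were all 7 in the other endothelial cells (median 3.70). *Cd74* was 28.5-fold (23.1 to 35.6) higher, and *H2-Ab1* 16.1-fold (12.5 to 21.1). Macrophage markers were also higher in 8 of 9 cases in *Cxcl9*-rich cells (median 1.99) and 9 of 11 in the others (median 2.35), and T and NK cell markers in 5 of 5 (median 1.36) and 8 of 8 (median 1.78). Their part in the class II difference was not tested. Guanylate-binding proteins were higher in 3 of 10 cases in *Cxcl9*-rich cells (median 0.87) and 9 of 10 in the others (median 2.20). *Gbp2b* was at 1928 CPM in the *Cxcl9*-rich cells of library 4, and its 0 UMIs in those of library 1 allow up to 2.07 CPM. In the other endothelial cells it was at 1593 and 0.143 CPM. The immunoproteasome was higher in 4 of 5 cases (median 1.23) and 5 of 5 in the others (median 1.45), and MHC class I in 6 of 18 (median 0.67) and 8 of 18 (median 0.97). *Ubd* was 70.2-fold (51.3 to 98.9) higher and *Vcam1* 5.61-fold (5.04 to 6.26).

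Capillary genes were lower in library 4 in both groups of cells. In *Cxcl9*-rich cells 6 of 11 were lower (median -2.03), and in the others 7 of 11 (median -1.78). Cardiomyocyte markers were lower there too, in 8 of 8 cases in both (medians -1.91 and -2.62), as were erythroid markers in 5 of 5 and 2 of 5 (medians -2.70 and -0.79), and their part in the capillary difference was not tested. *Aqp1*, a water channel, was at 162 CPM in the *Cxcl9*-rich cells of library 4 and 2500.4 in those of library 1, and at 158 and 2015 in the others. *Lpl*, lipoprotein lipase, was at 170.4 and 1396 CPM in *Cxcl9*-rich cells and 154 and 1319 in the others. Immediate early genes were lower in 9 of 11 cases in both (medians -1.71 and -1.95), with *Egr1* at 639 and 4708 CPM in *Cxcl9*-rich cells. Glycolysis and hypoxia genes were higher, in 11 of 15 cases (median 1.43) and 9 of 16 (median 1.23), with *Pkm*, pyruvate kinase, at 1188 and 153 CPM. Of 26 antiviral genes, 3 were higher and 6 lower in *Cxcl9*-rich cells (median 0.23). In the others 9 were higher and 5 lower (median 0.65). Among those lower in *Cxcl9*-rich cells were *Isg15* at 134 and 971 CPM and *Bst2* at 148 and 1026. In the lists named so far, the direction of the list median was thus the same in *Cxcl9*-rich and in other endothelial cells. The balance of antiviral calls was not. In other lists the direction differed, for arterial (medians -0.15 and 0.26), leukocyte adhesion (-0.11 and 0.05) and cell cycle genes (-0.58 and 0.15). It also differed for endocardial genes (-2.31 and 0.41) and platelet markers (0.15 and -0.69), with few genes measured. Against library 3 in place of library 1, 498 of 8573 genes (5.81%) were higher in the *Cxcl9*-rich cells of library 4 and 608 (7.09%) lower.

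**Figure D4:**
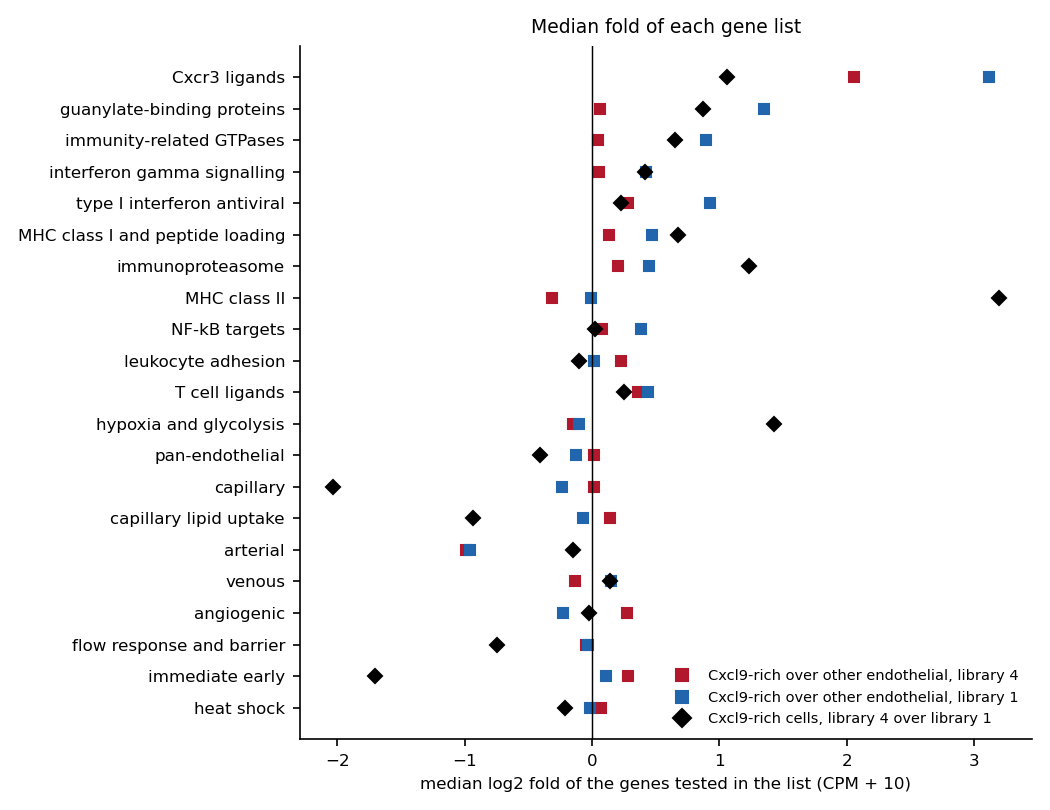
Median log2 ratio of each gene list, on CPM with 10 added, for *Cxcl9*-rich against other endothelial cells within libraries 4 and 1 (squares) and between the *Cxcl9*-rich cells of libraries 4 and 1 (diamonds). Guanylate-binding proteins lie at 0.06 within library 4 and 1.35 within library 1, and MHC class II genes reach 3.19 between the libraries.

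*Cxcl9*-rich endothelial cells held a small share of the *Cxcl9* of library 4 and a larger one of that of library 1. In library 4 the level was 11424 CPM in them, 2833 in macrophage-gated cells, 3014 in fibroblast-gated cells, 1174 in granulocyte-gated cells and 398.5 in T cell-gated cells. The 8248 macrophage-gated cells carried 80.2% of all *Cxcl9* UMIs of the library and the 333 *Cxcl9*-rich cells 10.4%. In library 1 endothelial cells held more of it than macrophages, with 32.3% of *Cxcl9* UMIs in *Cxcl9*-rich cells, 37.3% in other endothelial cells and 6.03% in macrophage-gated cells, which were at 111.9 CPM. Such shares depend on the numbers of cells captured, and library 1 had 628 macrophage-gated beside 3487 gated endothelial cells. In library 3 the *Cxcl9*-rich cells held 15.1% and the other endothelial cells 38.4%. Of the 348 fibroblast-gated cells of library 4, 24.7% held 20 or more UMIs of *Cxcl9*, against 48.8% of the macrophage-gated cells. *Cxcr3*, the receptor, was at 101.6 CPM in the T cell gate of library 4, with a UMI in 54.0% of its 367 cells, and *Ifng* at 1724 CPM, whereas the T cell gate of library 1 (77 cells) had 125.8 CPM of *Cxcr3* and 193.6 of *Ifng*. In the *Cxcl9*-rich cells of library 4 *Cxcr3* was at 0.716 CPM.

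**Figure D5:**
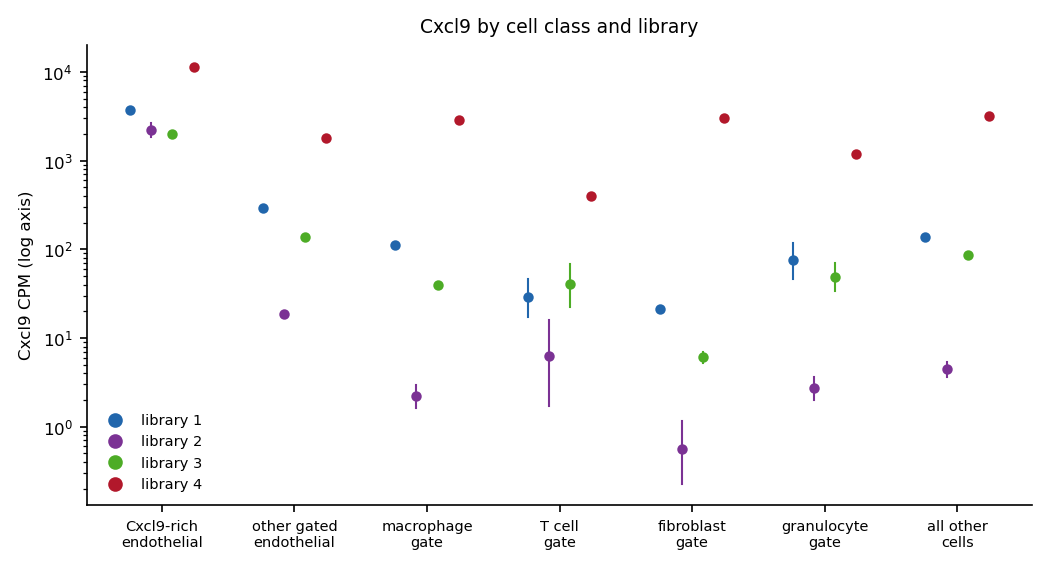
*Cxcl9* level in CPM, on a log axis, by gated cell class and library, with exact 95% Poisson intervals. *Cxcl9*-rich cells are highest by the rule that chose them, and macrophage-gated cells are at 2833 CPM in library 4 and 111.9 CPM in library 1.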

How the data were processed

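Single cells of 4 heart grafts were counted by the authors with Cell Ranger 3.0.0 on mm10 (CASAVA 1.8 and Seurat are also named in the submitters' notes), and the deposited file holds counts of UMIs per gene and cell, merged over 4 libraries without normalization. Mitochondrial genes (13) were removed before levels were computed. Cells with over 200 genes and under 20% mitochondrial UMIs were kept. UMIs were summed over the cells of a group in a library and scaled to 1000000. The macrophage gate took cells with UMIs of *Ptprc* and of *C1qa* or *Csf1r*, and the T cell gate cells with *Ptprc* and *Cd3e*. The fibroblast gate took cells with *Dcn* and *Col1a1* or *Col3a1* but without *Ptprc* and *Cdh5*, and the granulocyte gate cells with 10 or more UMIs of *S100a8*. As libraries could not be paired with grafts, no test was run. A ratio used CPM with 10 added and 10 CPM or more in either group. Named genes were the highest or most different of their list, the genes best correlated with *Cxcl9*, and the 20 largest and 10 smallest ratios in library 4. These ratios were taken at 100 CPM or more and in the same direction in library 1. The cells, the 42 gene lists and the comparisons were chosen with earlier results of these data known. The comparisons within libraries 1 and 3 and between libraries, the cells of library 1 with *Ubd* and the lists without them, and the letters GGGANTTCC were chosen after values were seen. Of 434 listed genes, 429 were found. *Cxcl11*, *Gbp11*, *Gm12250*, *H2-T10* and *Mx2* were not analysed here, and some single genes are not reported here. Doublets were limited by the gates on 5 genes, and Scrublet in Scanpy 1.11.5 was an alternative. Shares of cells are given at full depth and, where groups were compared, also with cells thinned to 2000 UMIs, which left out 23 of the 101 other endothelial cells of library 4. Python 3.11.15, NumPy 2.4.6, SciPy 1.17.1, pandas 2.3.3 and Matplotlib 3.10.9 were used, and the steps were tested on simulated data.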

Additional observations from a re-analysis of the deposited data

How the results depend on the processing

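The main count within library 4, 27 genes higher and 189 lower in *Cxcl9*-rich cells, moved with the cells and settings used. It was 2504 and 1604 against the 5 cells with 0 UMIs of *Cxcl9*, 154 and 678 with 1 CPM added, 16 and 83 at 50 CPM or more, 248 and 899 at 1.5-fold, 74 and 358 with cells weighing equally, 405 and 582 after thinning, 193 and 410 with *Cxcl9* at 10 UMIs or more, 12 and 115 at 40 or more, and 65 and 48 in library 1, also when the interval had to exclude 1. The higher genes alone moved to 223 pooled over libraries, 46 after centring, 105 with *Cxcl9* at 20 per 10000 UMIs and 66 against comparison cells of 4000 UMIs or more, the last chosen after seeing the data. Pooled counts without 1 library ranged from 112 to 272 higher (272, 257, 267 and 112 without libraries 1, 2, 3 and 4) and from 114 to 243 lower, lowest without library 4 in both cases. Counts stayed within 1.5 times without Scrublet doublets (27 and 188). Removing the filter on low values left 27 and 189, which was fixed in advance. With 10 CPM added, a gene under 10 CPM in both groups cannot reach 2-fold. The 485 cells became 820 at 10 UMIs or more and 316 at 40 or more. Their share was 4.93% in library 1 and 89.9% in library 4 with *Cxcl9* per 10000 UMIs, and 6.51%, 2.39% and 90.8% in libraries 1, 3 and 4 after thinning. Thus lower genes outnumbered higher ones in the main count, and the balance turned in library 1, against cells with 0 UMIs of *Cxcl9* and in the pooled counts, except without library 4 (112 higher and 114 lower). Within library 4, the 2-fold call of *Cxcl10* was lost with cells weighing equally (log2 ratio 0.965) and those of *Vcam1* (0.95) and *C1qa* (-0.94) after thinning, and *Lyz2* passed 2-fold with cells weighing equally (-1.24). Within library 1, *Icam1* passed it under both (1.12 and 1.02) and *Tap1* with cells weighing equally (1.24). Of genes not past 2-fold, the log2 ratio in library 1 changed sign for *C1qa* (-0.70, and 0.23 thinned), *H2-Aa* (-0.07, and 0.13 thinned), *H2-Ab1* (0.24, and -0.08 with cells weighing equally) and *Cd74* (0.05, and -0.003 with cells weighing equally), and in library 4 for *Cd74* (-0.003, and 0.01 without Scrublet doublets). Which part of these shifts comes from depth was not tested, since the 101 comparison cells of library 4 hold 499692 UMIs, so 1 UMI there is 2.00 CPM. No paired analysis was possible because barcodes carry no replicate number.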

Other observations

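Genes of blood clotting differed between the *Cxcl9*-rich cells of libraries 4 and 1 in both directions. Of 12 measured, 5 were higher and 2 lower in library 4 (median log2 ratio 0.71), and in other endothelial cells 5 of 11 were higher and 0 lower (median 0.80). *Anxa2*, which gathers plasminogen on the cell surface, was at 1120.3 CPM in the *Cxcl9*-rich cells of library 4 and 182 in those of library 1. *Procr*, the protein C receptor, was at 40.6 and 8.97 CPM and *Thbd* at 98.8 and 256. Within library 4, 1 of 12 was higher and 1 lower than in other endothelial cells (median -0.36), the lower being *Vwf* at 11.2 and 92.1 CPM.

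Outside the lists, *Upp1*, uridine phosphorylase, was at 868 CPM in the *Cxcl9*-rich cells of library 4 and 71.8 in those of library 1, and at 502 and 39.7 in the other endothelial cells. *Capg*, an actin-capping protein, was at 328 and 30.4 CPM in *Cxcl9*-rich cells. In the opposite direction, *Sparcl1*, a matricellular gene, was at 121 and 1374 CPM, *C1qtnf9*, an adipokine gene, at 6.92 and 399, and *Dbp*, a clock output factor, at 18.4 and 236. Other endothelial cells differed in the same direction in these 3 genes, with *Sparcl1* at 118 and 1583 CPM. These differences lie between libraries that could not be paired with grafts.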
